A study of Mus musculus with 28 samples.

Results

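The libraries described here came from CD11c+ age-associated B cells (ABC) and CD23+ B cells that were sorted from the spleens of female mice with an intact Xist gene (WT). They were chosen by their labels alone: 4 WT libraries of CD11c+ ABC were set against 6 WT libraries of CD23+ B cells, which is 10 of the 28 libraries of the series. The WT animals are described by the submitters as healthy, carried the low dsDNA label and received no treatment that the labels name. The 10 libraries came from 6 animals, of which 4 gave both subsets, as read from the animal numbers of the deposited tables. The animals were age-matched, but neither age nor strain, nor the Cre driver of the deletion, is stated in the labels used. For comparison, the same subsets were taken from Xist cKO animals, in which Xist was deleted in B cells: 3 ABC and 3 CD23+ libraries of animals with the high dsDNA label, and 3 CD23+ libraries of animals with the low dsDNA label. A further 6 libraries of B220- CD138+ long-lived plasma cells (LLPC) of the WT animals served as an outside reference.

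CD23 is the low-affinity IgE receptor, a surface marker of the resting follicular B cells that make up most of the splenic B cell pool. Age-associated B cells lack CD23, carry the integrin CD11c, which is otherwise best known from dendritic cells, and build up in aged animals and in animals with lupus-like autoimmunity. They are regarded as antigen-experienced cells that can turn into antibody-secreting plasma cells. The WT comparison asks how far both subsets lie apart in animals with intact Xist.

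The deposited tables list 40303 features by strain-specific gene IDs, and 0 of these were found in the annotation tables used here. No gene name, position or sequence was therefore given to any feature, and the sorted cells were not checked against marker genes. At most 2 features that were higher and 2 that were lower in ABC are given by ID, and others are described by their rank and level. Library totals ran from 4963298 to 23866710 counts over the 10 libraries; this gives several counts in each library to features of 1 CPM (counts per megacount, that is, scaled to the library total) or more but leaves scarcer ones uncertain. In such sorted pools a lower level can mean less RNA per cell or fewer cells that carry it, and these cannot be told apart.

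Of 12761 features tested, 4639 differed between ABC and CD23+ cells of WT animals, which is 36.4% (edgeR quasi-likelihood test, Benjamini-Hochberg adjusted p under 0.05). There were 2583 features higher in ABC (20.2% of those tested) and 2056 lower (16.1%). Rises were larger than falls. The median rise was 0.94 on the log2 scale with quartiles of 0.51 and 2.32, and the median of the lower features was -0.57 with quartiles of -1.03 and -0.37. Over all features tested the median was 0.00, with 50.1% on the higher side.

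The imbalance grew with the size of the change. At least 2-fold changes were seen in 1767 features (13.8% of those tested), 1231 of them higher and 536 lower in ABC. At least 4-fold there were 731 higher and 105 lower features, and at least 8-fold 464 higher and 10 lower. By fitted values, 104 higher features were at least 32-fold up. The 2 lower features with a fitted change of that size had 0 and 1 counts over the 4 ABC WT libraries, too few to set the size of their fall. The number of features at least 32-fold higher rose to 158 when CD23+ WT replicate 6 was left out. That library alone held over 50% of the summed CD23+ CPM of 136 of the 2583 features higher in ABC, and of 0 that were lower. A call as lower favours features that are high in most CD23+ libraries, so these counts do not compare the directions. The share over all features tested is not given here. Of the higher features, 501 were under 1 CPM over the CD23+ WT libraries, and 99 of these were over 10 CPM in ABC WT. Of the lower features, 126 were under 1 CPM over the ABC WT libraries, and 0 of these were over 10 CPM in CD23+ WT.

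**Figure D1:**
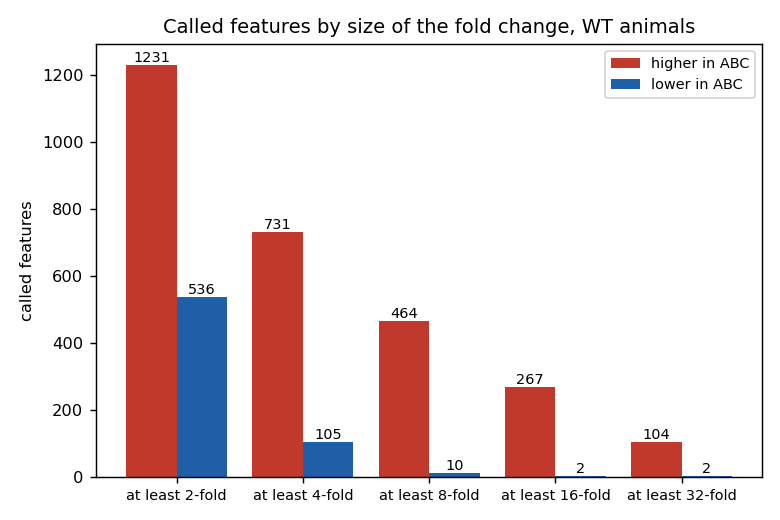
Number of called features (y axis) that changed at least 2-, 4-, 8-, 16- or 32-fold (x axis) between ABC and CD23+ cells of WT animals, with red bars for features higher in ABC and blue bars for lower ones. The higher features outnumber the lower ones at each size, from 1231 against 536 at 2-fold to 464 against 10 at 8-fold. Sizes are fitted values, and the 2 lower features in the classes from 16-fold had 0 and 1 counts in ABC WT.

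The levels at which features changed also differed by direction. Among the 4095 features with a mean of 1 to 10 CPM, 1382 were called (33.7%), and of these 924 were higher in ABC and 458 lower. The medians of these called features were 2.38 for rises and -1.17 for falls on the log2 scale. At low counts only larger changes can be called, and the part of this in the medians was not tested. Among the 6319 features of 10 to 100 CPM, 2232 were called (35.3%), 1287 higher and 945 lower, with medians of 0.62 and -0.51. Among the 2089 features of 100 to 1000 CPM the order was turned round, with 345 higher and 619 lower features of 964 called. At this level changes were small, with medians of 0.51 and -0.40. Of the 59 features at 1000 CPM or more, 22 were called, 14 of them higher in ABC.

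**Figure D2:**
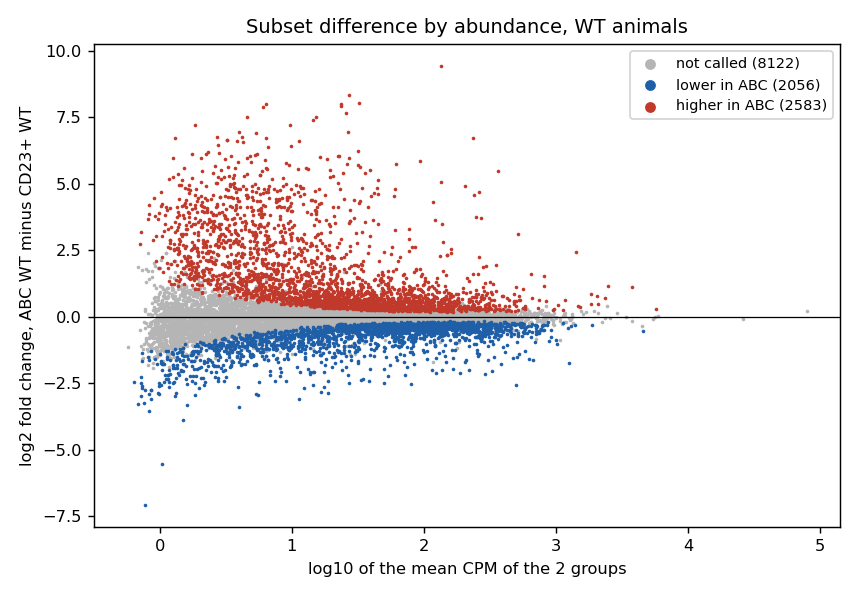
Log2 fold change of ABC WT over CD23+ WT (y axis) against the log10 of the mean CPM of both groups (x axis) for each of the 12761 features tested. Red points are the 2583 features called higher in ABC, blue points the 2056 called lower and grey points those not called. Large rises are found at low and middle abundance, and most lower features lie close to the zero line.

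The sign of the difference was compared within the 4 animals that gave both subsets. Of all 12761 features tested, 3263 were higher in ABC in all 4 animals (25.6%) and 3175 lower (24.9%). Among the called features, 2413 of the 2583 higher ones and 1937 of the 2056 lower ones had that sign in all 4. The median within-animal log2 difference of the higher features was 0.94, 0.90, 0.96 and 0.83 in the animals of ABC WT replicates 1 to 4, and that of the lower features was -0.56, -0.48, -0.64 and -0.64. These counts and medians are of features called on the same libraries, which favours a shared sign, and are given as a description. In 3311 features (25.9% of those tested) the CPM values of ABC and CD23+ libraries did not overlap at all, with 1875 features higher and 1436 lower in ABC, and 1823 and 1352 of these were called.

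The largest rise among features of at least 5 CPM was that of MGP_BALBcJ_G0033056. It stood at 290.8, 313.6, 222.6 and 256.5 CPM in ABC WT replicates 1 to 4. In CD23+ WT replicates 1 to 6 it stood at 0.136, 0, 0.785, 0.293, 0.314 and 0.785 CPM, from at most 10 counts in any library. All 4 ABC libraries thus held this RNA at a middle level, and all 6 CD23+ libraries were at the edge of detection. The log2 fold change was 9.43 (SE 0.247, edgeR adjusted p = 3.93e-11). In cKO high animals it was also far higher in ABC, at 511 ± 203 CPM (SD, n = 3) against 0.22 ± 0.279 CPM in CD23+ cells. WT LLPC held 9.62 ± 6.95 CPM (n = 6), between both B cell subsets.

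The largest difference in CPM without overlap was that of MGP_BALBcJ_G0024796. Its levels were 2594, 3428, 1850 and 1685 CPM in ABC WT replicates 1 to 4, and 557, 566, 348, 313, 516 and 347 CPM in CD23+ WT replicates 1 to 6. The lowest ABC library was well above the highest CD23+ library, and the ABC libraries themselves spread widely. Within the 4 shared animals the log2 difference was 2.22 to 2.60, and the animals of replicates 1 and 2 were the highest of the 4 in both subsets. The log2 fold change was 2.43 (SE 0.226, adjusted p = 7.8e-06). In cKO high animals the levels were 3393 ± 648 CPM in ABC and 339 ± 47.6 CPM in CD23+ cells (n = 3 each), a log2 fold change of 3.29 (SE 0.144, edgeR adjusted p = 7.16e-10).

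Among lower features of at least 5 CPM with no overlap and the same sign in all 4 shared animals, MGP_BALBcJ_G0035181 showed the largest fall. It was at 7.26, 10.2, 4.37, 5.99, 8.05 and 7.93 CPM in CD23+ WT replicates 1 to 6, and at 0.462, 0.651, 1.01 and 0.701 CPM in ABC WT replicates 1 to 4. The groups were apart, but the ABC values rest on 4 to 7 counts per library. The log2 fold change was -3.39 (SE 0.34, edgeR adjusted p = 1.85e-06). Under the same conditions for overlap and sign, the largest loss in CPM was that of MGP_BALBcJ_G0000009, an abundant feature. It stood at 1953, 1654, 1987, 1932, 2031 and 1927 CPM in CD23+ WT replicates 1 to 6 and at 619, 475, 577 and 618 CPM in ABC WT replicates 1 to 4. Its within-animal log2 difference lay in the narrow range of -1.80 to -1.64, and the fold change was -1.73 (SE 0.107, adjusted p = 1.16e-08). It was still lower in WT LLPC, at 9.88 ± 18.7 CPM (n = 6), where replicate 1 alone held 47.9 CPM and the others 0.43 to 3.67 CPM. When the LLPC libraries entered the same fit, its SE rose to 0.734 and the call ended (log2 fold change -1.75, adjusted p = 0.0997).

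**Figure D3:**
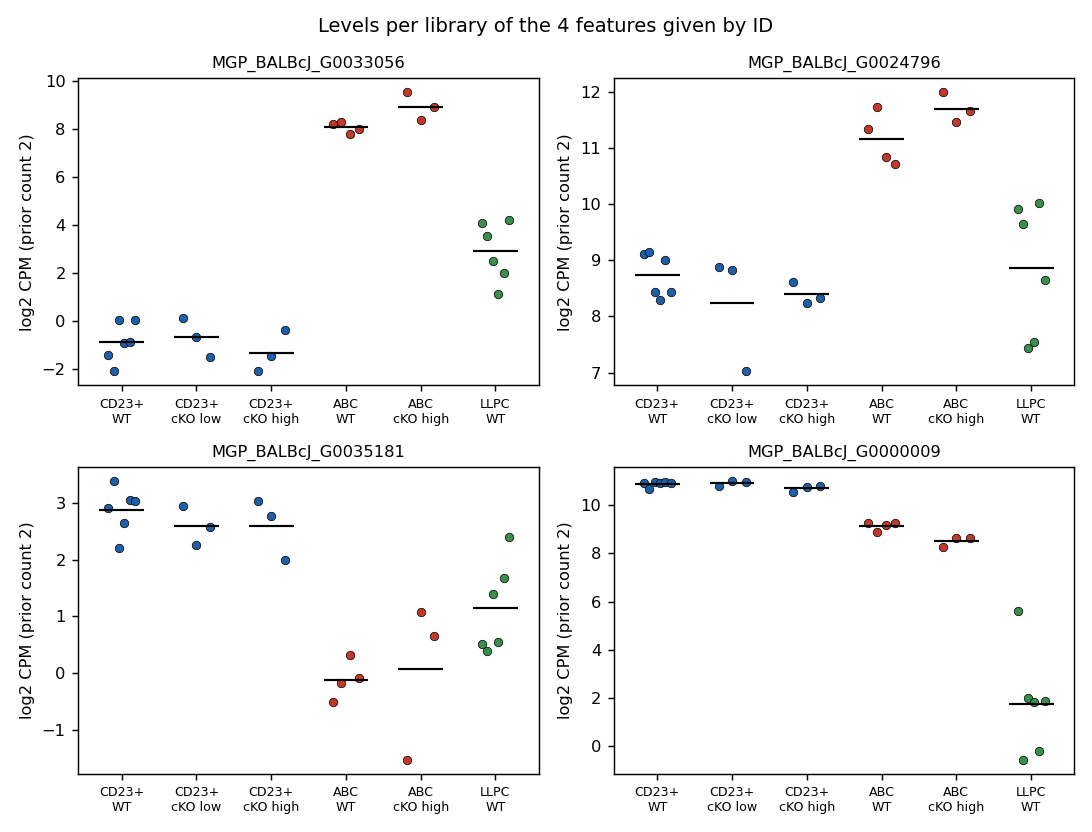
Log2 CPM with a prior count of 2 (y axis) of the 4 features given by ID in each library of the CD23+ (blue), ABC (red) and LLPC (green) groups (x axis), with points for libraries and black lines for group means. ABC and CD23+ libraries are apart in all 4 panels, in WT as in cKO high animals. The mean CPM of WT LLPC lies between the WT subsets for 3 features and below both for MGP_BALBcJ_G0000009. For MGP_BALBcJ_G0024796 only LLPC replicates 1, 2 and 5 lie between the subsets. Replicates 3 and 4, at 173.7 and 185.5 CPM, are below every CD23+ WT library, and replicate 6, at 400.5 CPM, is within their range.

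Other leading features were described by rank. Under the rule that required no overlap, the same sign in all 4 animals and a mean of at least 5 CPM, the 10 largest rises lay between 7.50 and 9.43 on the log2 scale. Their mean CD23+ WT level was at most 0.385 CPM, and their ABC WT level ran from 9.16 to 270.9 CPM. Of the 1072 features at least 2-fold higher in WT ABC that were tested in cKO high animals, 943 (88%) were called higher there. All 10 of the largest rises were among these, with log2 fold changes from 6.87 to 11.2 in cKO high animals. They did not share one level in plasma cells. The ninth by fold was at 0.0211 CPM in WT LLPC and 9.16 CPM in WT ABC. The sixth was at 67.8 CPM in LLPC against 47.0 CPM in ABC. Some of these features also varied between ABC libraries, the third in order from 30.6 to 117.5 CPM and the sixth from 15.1 to 87.4 CPM.

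The 10 largest falls were smaller, between -3.39 and -2.58 on the log2 scale. Of these features, 9 were called lower in ABC cKO high too, and the seventh had a log2 fold change of -1.27 there (edgeR adjusted p = 0.283). Of the 471 features at least 2-fold lower in WT ABC that were tested in cKO high animals, 353 (74.9%) were called lower there. The most abundant of the 10 largest falls is given next. It fell from 845.7 CPM in CD23+ WT to 141.7 CPM in ABC WT, with ABC libraries from 74.5 to 188.1 CPM and CD23+ libraries from 661 to 978 CPM. No higher feature was without any count in CD23+ WT, although 9 had counts in CD23+ WT replicate 6 only, with at most 16 counts there. In the other direction 1 feature had no count in any ABC WT library. It was at 1.02 to 2.51 CPM in the CD23+ WT libraries, which makes it at least 16.4-fold lower in ABC against a floor of 3 counts over the group, and it had 11 counts in the ABC cKO high libraries.

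Ranked by the difference in CPM, the features higher in ABC were a mixed set. The second in this order differed only slightly, 6261 against 5123 CPM, with a log2 fold change of 0.30 (SE 0.11, edgeR adjusted p = 0.0471). The sixth went from 107.0 CPM in CD23+ WT to 924.5 CPM in ABC WT and was scarce in LLPC, at 46.3 CPM. The eighth went from 16.7 to 715.9 CPM, but varied from 326 to 1607 CPM between ABC libraries and stood at 4681 CPM in LLPC. The lower features were more alike. In the 10 with the largest loss of CPM the WT ABC level lay between 142 and 706 CPM, and the mean WT LLPC level was below the ABC level for each of them.

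One of the abundant higher features, the fifth by CPM difference, was chosen for description after its values were seen, as the most abundant in CD23+ WT of 22 features whose mean over the 6 CD23+ cKO libraries was under 2% of the CD23+ WT mean. In ABC WT replicates 1 to 4 it was at 2374, 2967, 2113 and 1989 CPM. In CD23+ WT the lowest library had 1106, the median was 1306 and the highest 1480 CPM. Every WT ABC library was therefore above every WT CD23+ library, and the log2 fold change was 0.86 (SE 0.111, edgeR adjusted p = 2.26e-05), with within-animal differences of 0.51 to 1.26. In the cKO high animals the remaining level was 17.99 ± 2.46 CPM in ABC and 4.76 ± 0.407 CPM in CD23+ cells (SD, n = 3 each), so that ABC were higher there as well. ABC kept 0.762% of the WT level and CD23+ cells 0.365%.

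The level in plasma cells was set beside both subsets. Of the 2583 features higher in ABC, 881 (34.1%) had a mean CPM in WT LLPC above both B cell subsets, 758 lay between them, and 944 (36.5%) were below both. Over all features tested, 18.9% were above both in LLPC, 11.6% between and 69.5% below. Among the 1231 features at least 2-fold higher in ABC, 480 were above both in LLPC and 251 below both. Of the 2056 features lower in ABC, 1790 (87.1%) were below both subsets in LLPC and 88 (4.28%) above. These positions rest on plain CPM. In the LLPC WT libraries 10 features took 25.97 to 49.61% of counts, and their part in the positions was not tested. Those 10 plasma cell features took 9.8, 9.95, 14.0 and 15.2% of counts in ABC WT replicates 1 to 4, and 9.28 to 11.04% in CD23+ WT. Their part in the difference between ABC and CD23+ cells was not tested.

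The cKO high animals allowed the subset difference to be measured again in other animals. That contrast used 3 ABC and 3 CD23+ libraries from 3 animals and shares no library with the WT contrast; ABC replicate 2 had the smallest total of the series, 2133489 counts. Of 12148 features, 2376 were higher (19.6%) and 2174 lower (17.9%) in ABC. Of the 2583 features higher in WT ABC, 2423 were tested in the cKO high animals. In these, 2377 were on the same side (98.1%), 1799 were called higher (74.2%) and 1 was called lower. Of the 2056 lower features 1990 were tested, 1954 were on the same side (98.2%), 1437 were called lower (72.2%) and 0 were called higher at an adjusted p under 0.05 by edgeR. The shared features were 79.5% of the higher and 66.1% of the lower features called in the cKO high animals that were also tested in WT.

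On the log2 scale, the median of the 2423 higher features was 0.86 in WT and 0.86 in cKO high animals. That of the 1990 lower features was -0.55 and -0.65, while the median over all 11980 features tested in both was 0.00 and -0.01. Across these features, which are not independent replicates, the fold changes had a Pearson r of 0.90, and 82.8% had the same sign.

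**Figure D4:**
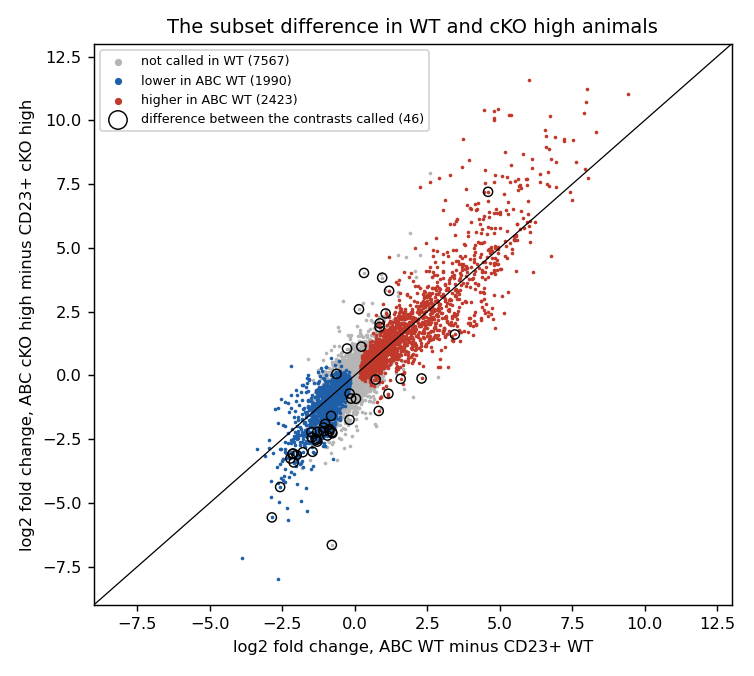
Log2 fold change of ABC over CD23+ cells in WT animals (x axis) and in cKO high animals (y axis) for the 11980 features tested in both, with the line of equal values. Red and blue points were called higher and lower in ABC WT, and circles mark the 46 features whose fold change differed between the contrasts. Most called points lie near the line, and many circled blue ones lie below it.

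Whether the subset difference itself depended on genotype was tested in 1 fit of the 16 libraries of the 4 groups. It differed in 46 of 13582 features (0.339%), with a more negative difference in cKO high animals for 35 and a more positive one for 11 (edgeR adjusted p under 0.05). Genotype and disease label changed together here. The 35 features were called for a negative difference, which favours a lower value in cKO high. Over all features tested in WT, 50.1% were on the higher side. Of the 35 features, 28 were on the lower side in WT ABC and further down in cKO high ABC. A further 6 were on the higher side in WT and on the lower side in cKO high. The first by p, which is also the tenth by loss of CPM in WT, was at 668 ± 82.5 CPM in ABC WT (n = 4) and 222 ± 31.6 CPM in ABC cKO high (n = 3), and at 1150 ± 114 and 1043 ± 60.6 CPM in the CD23+ groups (difference of log2 fold changes -1.47, SE 0.16, edgeR adjusted p = 4.7e-05). The second was at 104 ± 18.7 CPM in ABC WT and 43.1 ± 3.93 CPM in ABC cKO high, against 34.7 ± 4.48 and 46.7 ± 4.61 CPM in CD23+ cells, in WT and cKO high (difference -1.70, SE 0.185).

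Of the 11 features with a more positive difference, the one with the smallest p was at 94.1 ± 12.5 CPM in ABC WT and 220.2 ± 7.96 CPM in ABC cKO high, while both CD23+ groups stood at 52.2 ± 5.26 and 52.3 ± 6.67 CPM. The feature that was nearly absent from CD23+ cKO libraries was also among the 11 (difference 1.07, SE 0.215, edgeR adjusted p = 0.0264). It was picked by its low level in CD23+ cKO libraries that enter this difference. That favours a positive value, so its p is a description only. The count of 46 features was not stable. That count was 105 with the animal as a block, which keeps only animals with both subsets. It was 0 when all 28 libraries shared 1 fit. In that fit 703 of 14123 features had an unadjusted p under 0.05, about the number that this threshold gives by chance. Without single libraries the count of called features was 27 (CD23+ WT replicate 1), 23 (CD23+ cKO high replicate 2), 74 (ABC WT replicate 3), 22 (ABC cKO high replicate 1) and 21 (ABC cKO high replicate 3).

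The contrast in cKO high animals also gave lists whose direction was not chosen on the WT libraries. Of 1261 features at least 2-fold higher and 736 at least 2-fold lower in ABC cKO high, 1149 and 735 were tested in WT. The filter for testing used counts of the WT libraries. A feature scarce in CD23+ cells could pass it through its ABC WT level, so the levels are given as a description. The mean log2 CPM of the 1149 was 3.93, 3.65, 4.04 and 3.96 in ABC WT replicates 1 to 4 and 1.58 to 2.02 in the 6 CD23+ WT libraries. The mean of the 735 was 3.21, 3.34, 3.02 and 3.22 in ABC WT and 4.11 to 4.49 in CD23+ WT. Neither list overlapped between the WT subsets. ABC WT replicate 2 was the nearest to CD23+ cells on both lists, and CD23+ WT replicate 6 the nearest to ABC on the first. The 3 CD23+ cKO low libraries, which were not used to choose the lists, stood at 1.62 to 1.82 and 4.07 to 4.29, within or just below the range of CD23+ WT.

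**Figure D5:**
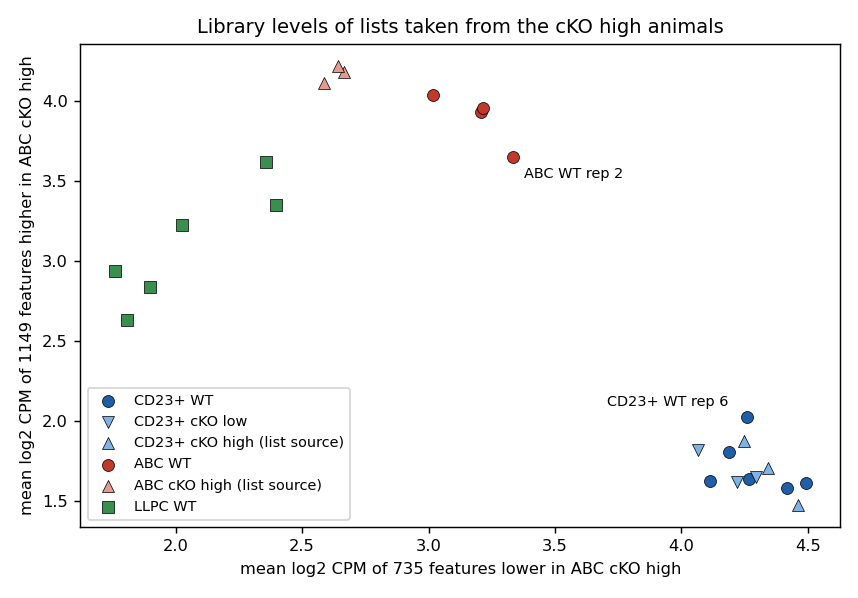
Mean log2 CPM per library of the 1149 features at least 2-fold higher (y axis) and the 735 at least 2-fold lower (x axis) in ABC of cKO high animals, with 1 point per library; triangles pointing up are the libraries that the lists came from. ABC WT libraries sit at 3.65 to 4.04 on the y axis, all above the CD23+ WT libraries at 1.58 to 2.02. LLPC libraries lie lower on the x axis than both. Their mean log2 CPM over all features tested was also lower, at 3.34 to 4.08, against 4.33 to 4.39 in ABC WT and 4.19 to 4.34 in CD23+ WT.

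ABC libraries were less uniform than CD23+ libraries. The median SD of log2 CPM over the features tested was 0.271 among ABC WT libraries (n = 4) and 0.196 among CD23+ WT libraries (n = 6), or 0.195 in the 4 CD23+ libraries of the same animals. ABC had the larger SD in 70.1% of features. Without ABC WT replicate 2 the ABC value was 0.224, and without CD23+ WT replicate 6 the CD23+ value was 0.178. The rank correlation across features between libraries had a median of 0.977 within ABC, 0.988 within CD23+ cells and 0.931 between them. Library totals were 4963298 to 9990545 counts in ABC WT and 6768292 to 23866710 in CD23+ WT. Lower totals add sampling noise, and the part of depth in these values was not tested. On the first principal component, which held 65.5% of the variance, ABC WT replicate 2 lay at 54.4 and the other ABC libraries at 70.2 to 76.6, and the CD23+ libraries at -55.1 to -29.1 with replicate 6 at -29.1. Without ABC WT replicate 2, 5123 features were called in place of 4639.

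No difference in the breadth of expression passed the test. Thinned to 4963298 counts each, ABC WT libraries held 16277 ± 276 features with a count (SD, n = 4) and CD23+ WT libraries 17686 ± 3622 (n = 6), a difference of -1409 (p = 0.767 by an exact permutation test, two-sided, with a smallest possible p of 0.00476, and an adjusted p of 0.767 over 3 measures). CD23+ WT replicate 6 held 25047 features in this count and the other 5 between 15817 and 16833. Without it the difference was 62.8. With at least 5 counts required, ABC WT libraries held 12896 to 12990 features. CD23+ WT replicates 1 to 5 then held 12136 to 12417, below every ABC library, and replicate 6 held 14121. With all 10 libraries that difference was 370.1 (exact permutation test, adjusted p = 0.405), and without replicate 6 it was not tested. The share of counts in a library's 10 leading features was 15.1% ± 2.79 in ABC and 14.1% ± 0.347 in CD23+ cells (exact permutation test, p = 0.405, adjusted 0.607), and for the 100 leading features it was 26.7% ± 2.68 and 25.4% ± 0.445 (exact permutation test, p = 0.257, adjusted 0.607). The ABC libraries were spread on both sides of CD23+ cells in these shares, with replicates 1 and 2 below and replicates 3 and 4 above.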

How the data were processed

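RNA of sorted spleen cells was measured by bulk RNA-seq, in 1 table per library. Per the labels' protocols, libraries were made with a low-input total RNA kit, and the tools listed in the submitters' processing notes are STAR 2.7.1a, featureCounts and FastQC. Each deposited table gives raw counts by feature. Genome build, strandedness and any collapsing of molecular identifiers were not given in the sources used here, so overlapping features and near-identical copies cannot be told apart. Groups came from the labels, which name biological replicates. Replicate pairs differed by more than sampling noise (chi-square per degree of freedom at least 3.73 where the pair held 20 or more counts of a feature).

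Differences were computed with R 4.3.3 and edgeR 4.0.16 (filterByExpr, TMM, robust dispersions, two-sided quasi-likelihood test, Benjamini-Hochberg over all features tested). Only the libraries of the groups compared entered each fit, because plasma cell libraries vary more. CPM values use plain library totals. Fitting was tested on simulated data. Members, settings and the naming rule were chosen with earlier results of these data known. The rule took per direction the largest fold change (at least 5 CPM) and the largest CPM difference among called features with no overlap and the same sign in all 4 shared animals. Gene lists planned for named genes could not be used. Deviations from the group means had a correlation of 0.102 to 0.368 between both libraries of an animal (4 pairs). Each ABC library was most like its own animal. The 20 pairs of other animals had a median of -0.04 and an overlapping range of -0.29 to 0.253. Alternatives were DESeq2 1.42.0, limma 3.58.1, other filters, scalings and fits, thinning, blocks, and leaving out each library.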

Additional observations from a re-analysis of the deposited data

Results flagged for a closer look

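A library far from the rest of its group was looked for in 18 checks in the WT groups of 4 and 6 libraries, of which 3 found one; chance gives about 1 in 20. CD23+ WT replicate 6 held 25047 features with a count at the equal total of 4963298, where the next library held 16833. It was also the only library of the series with more than 98 features of its own: 5518 features, with 15540 counts in all, had counts in no other library. The share of counts in the 10 leading features was 14.76% in CD23+ WT replicate 3, against 13.79 to 14.06% in the other CD23+ WT libraries. The log2 CPM of MGP_BALBcJ_G0000009 was 10.69 in CD23+ WT replicate 2, below 10.91 to 10.99 in the others.

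The difference between ABC and CD23+ cells differed between cKO high and WT animals in 46 features by the edgeR test of that difference itself, 35 of them with a more negative value in cKO high.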

How the results depend on the processing

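The count of 4639 features for ABC WT against CD23+ WT stayed within 1.5 times under 23 of 24 alternatives, from 3165 with the LLPC libraries in the fit to 5123 without ABC WT replicate 2. The exception was the demand for a 2-fold change (1767), which for the cKO high animals gave 1997 of 4550; there the other 16 alternatives lay between 3444 and 5159. DESeq2 called 4948 and limma 4742 features in WT. With the animal as a replicate block the counts were 4871 in WT and 4770 in cKO high animals, so neither count moved by 1.5 times. In WT the block keeps only animals with both subsets, and these gave 3770 when fitted without it. For the difference between genotypes the animal block gave 105 in place of 46, and a block by the number in the labels gave 92. DESeq2 gave 151, no filter on low counts 193, all 28 libraries in 1 edgeR fit 0, and leaving out 1 library 21 to 74. With 3 libraries in each cKO high group, small differences between genotypes may be missed. The 4 features given by ID kept their direction under all 24 alternatives, and all kept their call except MGP_BALBcJ_G0000009 with the LLPC libraries in the fit (adjusted p = 0.0997). The measures of breadth passed no threshold under any alternative, but the limit of 5 counts was tried only with CD23+ WT replicate 6 kept. Depth limits features under about 1 CPM.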
